A study of Homo sapiens with 8 samples.

Results

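The SR splicing factor family was examined through 10 genes, SRSF1 to SRSF7 and SRSF9 to SRSF11, out of 78932 genes in the deposited count tables. They were chosen by symbol, with earlier results of these data known, and each matched 1 Ensembl identifier. All 8 libraries came from HCT116, a human colorectal cancer line, in which NUDT21 carries a dTAG degradation tag, and all cells were given JTE-607. In 4 libraries the cells also received DMSO, the solvent, and in 4 they received dTAGV1, a ligand that brings a ubiquitin ligase to the tag so that the tagged protein is degraded. The NUDT21 protein is part of cleavage factor Im, which binds RNA upstream of poly(A) sites, and JTE-607 inhibits the nuclease that cleaves pre-mRNA there. Doses, treatment times and whether the line is a single clone are not given in the sources used here. No library without JTE-607 was analysed here, so the comparison concerns dTAGV1 on top of JTE-607.

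SR proteins join an RNA recognition motif, or a pair of them, to a tail rich in arginine and serine. They bind exonic enhancers and help U1 snRNP and U2AF to recognise splice sites, and several of them also act in mRNA export, translation and the choice of poly(A) sites. SR protein kinases and CDC-like kinases phosphorylate the tail, and the import receptor TNPO3 carries the proteins into the nucleus. Many SR genes limit their own expression through poison exons or intron changes that send the transcript to nonsense-mediated decay. CPSF6, a partner of NUDT21 in cleavage factor Im, ends in a tail of related composition.

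Transcripts of this kind are annotated for the whole family. In GENCODE 29 all 10 genes had at least 1 transcript classed as a target of nonsense-mediated decay, against 44.6% of 10645 tested coding genes. SRSF7 had the most, with 6 of its 12 transcripts. A retained-intron transcript was listed for 8 of the 10, against 59.2% of the same coding genes, and SRSF5 had 8 of them. These are numbers of annotated transcripts, and the counts per gene do not tell which were present in the cells.

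Because the study acts on cleavage and polyadenylation, the annotated 3′ ends of the members are shown first. UGUA, read as TGTA in the sequence, is the motif bound by cleavage factor Im. It was searched on the RNA's own strand in the last 100 bases of the principal coding transcript. TGTA was present in 4 of 10 members and in 55.2% of 10621 tested coding genes. The 30 bases around the TGTA nearest the end are given 5′ to 3′ from GENCODE 29 transcripts (GRCh38), with TGTA in capitals.
SRSF2, chr17:76734143-76734172, minus strand: taaccattgtttcTGTAgtttaattaaaac
SRSF3, chr6:36605557-36605586, plus strand: ccttgttggactcTGTActtaataatacag
SRSF7, chr2:38743639-38743668, minus strand: gctttaattgttcTGTAttatttaaagata
SRSF11, chr1:70252988-70253017, plus strand: ccgagttctgttgTGTAtttgatagtaaat

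SRSF2 held 3 copies of TGTA in this window. A poly(A) signal, AATAAA or ATTAAA, lay in the last 50 bases for 6 of the 10 members, against 78.4% of the tested coding genes. The site of SRSF4 held both signals and that of SRSF6 held AATAAA, and both are shown, with the signals in capitals, as members without TGTA in the window.
SRSF4, chr1:29147752-29147781, minus strand: ccATTAAAtttgAATAAAgactatttttgc
SRSF6, chr20:43464209-43464238, plus strand: tcaacattacacAATAAAacttagagttct

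Several members have more than 1 annotated end, and the ends in use cannot be read from counts per gene. A match is a description of these letters and not evidence of binding.

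Libraries held 3447842 to 4291256 counts on the sense strand. The reads come from the 3′ ends of poly(A) RNA, so counts were not divided by gene length. Levels are given as CPM, counts in each 1000000 after TMM scaling. NUDT21 itself, the tagged gene, had 104 to 139 counts with DMSO and 15 to 43 with dTAGV1. These are counts of RNA, whereas dTAGV1 acts on the protein, whose level is not measured by these libraries. Of the epithelial markers, EPCAM, KRT8, KRT18, KRT19 and CDH1 were present in every library and VIL1 had 0 to 3 counts. Their summed level was 1542 to 1787 CPM with DMSO and 1224 to 1322 CPM with dTAGV1, with EPCAM higher and KRT18 and KRT19 lower by the test below. Of 7 markers of blood, fibroblasts, endothelium, liver and glia, ALB was at 0 throughout and COL1A1 alone exceeded 2 counts, at 37 to 73. Mitochondrial genes took 7.98% to 8.56% of counts with DMSO and 9.22% to 10.4% with dTAGV1. Reads that fit no gene on the sense strand made up 30.1% to 33.7% and 35.9% to 37.4% of uniquely mapped reads. The part of these shares in the results below was not tested. In bulk RNA, fewer cells that express a gene and less RNA per cell cannot be told apart.

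Upon dTAGV1, 8 of the 10 SR genes fell and 0 rose. SRSF10 fell by 12.2%, the smallest of these changes, and SRSF2 fell by 36.5%, the largest. The call of SRSF10 held in 11 of 18 alternative analyses, given below. SRSF9 and SRSF11 did not pass the test. Over all 12618 genes tested, 57.9% were called in either direction, with 28.5% lower and 29.4% higher (quasi-likelihood test of edgeR at a Benjamini-Hochberg adjusted p of 0.05). Among 4261 tested genes with mean levels of 50 CPM or more, the range in which every member lies, 29.1% were called lower. The median log2 fold change was -0.40 for the 10 members and 0.01 for all tested genes. SRSF2, SRSF3, SRSF6 and SRSF7, 4 members, lay below the lower quartile of all tested genes, -0.43.

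**Figure D1:**
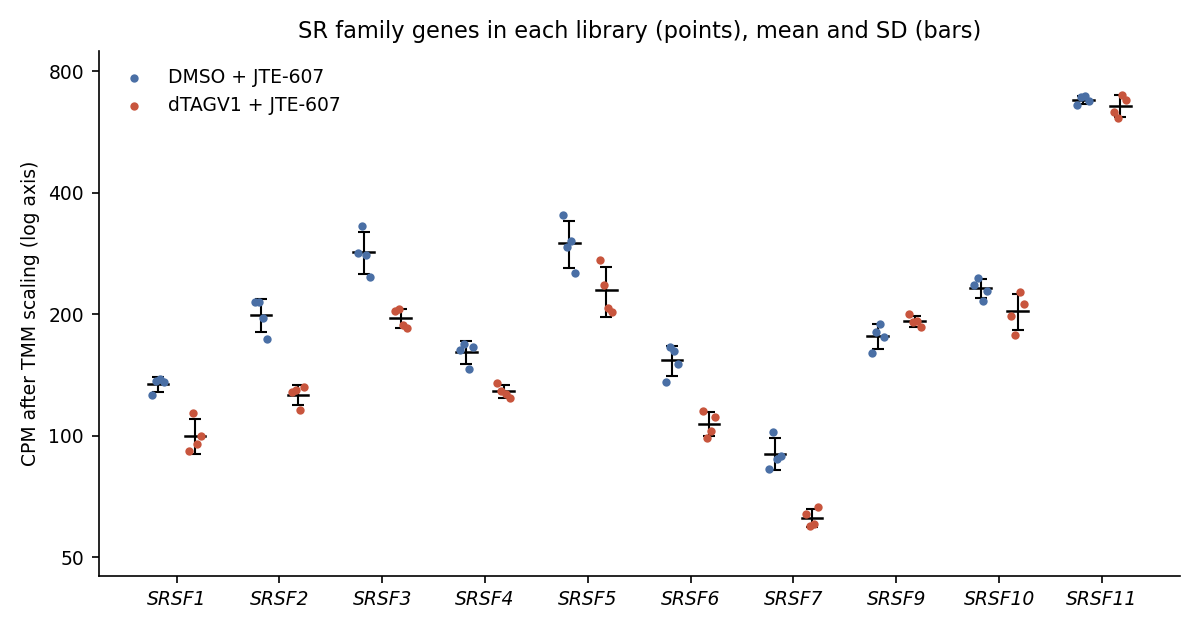
CPM after TMM scaling on a log axis for the 10 SR genes, with 1 point per library, the mean as a horizontal bar and the SD as an error bar (n = 4 per group). The points of both groups are separate for SRSF1, SRSF2, SRSF3, SRSF4, SRSF6 and SRSF7, and overlap for SRSF5, SRSF9, SRSF10 and SRSF11.

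The groups did not overlap for 6 members, SRSF1, SRSF2, SRSF3, SRSF4, SRSF6 and SRSF7, all of them lower with dTAGV1. Over all tested genes 50.9% did not overlap, and 25.1% did not overlap and were lower with dTAGV1. The summed level of the 10 genes was 2297 to 2533 CPM with DMSO and 1957 to 2045 CPM with dTAGV1. SRSF11 made up 28.2% ± 1.02 of this sum with DMSO and 32.8% ± 1.84 with dTAGV1, and SRSF9 7.32% ± 0.540 and 9.60% ± 0.232 (SD, n = 4 each). The share of SRSF2 was 8.25% ± 0.541 and 6.32% ± 0.398. These shares are descriptions and were not tested.

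SRSF2 encodes a nuclear SR protein that binds exonic enhancers and marks nuclear speckles. Like the other members it is protein-coding (ENSG00000161547; chromosome 17, 76734115 to 76737374, minus strand). Its levels were 214, 214, 196 and 174 CPM in DMSO replicates 1 to 4 and 128, 129.6, 116 and 132 CPM in dTAGV1 replicates 1 to 4. Every dTAGV1 library was lower than every DMSO library. The log2 fold change was -0.65, with a 95% interval of -0.82 to -0.49 (SE 0.08; edgeR, Benjamini-Hochberg adjusted p = 1.74e-07). SRSF2 had the largest fall of the 10 genes. Its closest relative, the retrogene SRSF8, is not among the 10 members. SRSF8 had 103 to 134 CPM with DMSO and 70.1 to 90.0 CPM with dTAGV1, also without overlap. Its log2 fold change was -0.63 (SE 0.09; edgeR, Benjamini-Hochberg adjusted p = 3.89e-06). SRSF8 is similar in sequence to SRSF2, so reads that map to both genes would have been counted to neither.

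SRSF3 and SRSF7 encode related SR proteins that shuttle between nucleus and cytoplasm, serve as adapters for the export receptor NXF1 and have been linked to the choice of poly(A) sites. SRSF7 differs from the other SR proteins by a zinc knuckle. SRSF3 (ENSG00000112081; chromosome 6, 36594353 to 36605600, plus strand) had 283, 331, 280.1 and 248 CPM with DMSO and 204, 206, 188 and 185 CPM with dTAGV1. SRSF7 (ENSG00000115875; chromosome 2, 38743599 to 38751494, minus strand) had 82.5, 102, 87.8 and 89.0 CPM with DMSO and 63.8, 59.8, 60.4 and 66.5 CPM with dTAGV1. Neither gene overlapped between the groups, although SRSF3 ranged widely among the DMSO libraries. The log2 fold changes were -0.55 for SRSF3, with a 95% interval of -0.71 to -0.38, and -0.53 for SRSF7, with one of -0.72 to -0.34 (edgeR, Benjamini-Hochberg adjusted p = 3.1e-06 and 2.22e-05).

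The proportion between both genes was compared within libraries. There were 3.16 ± 0.274 counts of SRSF3 for each count of SRSF7 with DMSO. With dTAGV1 there were 3.14 ± 0.277 (SD, n = 4 in both groups). The difference of the log2 ratio was -0.01, less than the spread between replicates (2-sided exact permutation test p = 0.857, and 0.857 after Benjamini-Hochberg adjustment over 5 ratios). Its sign changed when single libraries were left out, over a range of -0.07 to 0.05. A ratio within a library does not depend on the scaling between libraries.

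The promoters of this pair are shown because both genes fell by a similar size and both hold TATAAA near a start. RefSeq (GRCh38.p14) gave 11 windows for 9 of the 10 members, each from 250 bases before to 50 bases after a start. SRSF2, the member with the largest fall, had no window. On either strand, the TATA motif TATAAA was found in windows of 3 members, SRSF3, SRSF7 and SRSF11, and in 11.5% of 35116 windows of all genes. The background is a share of windows, whereas a member can have more than 1 window. SRSF11 had a log2 fold change of -0.05 and was not called. SRSF6, without TATAAA in its window, had one of -0.52. SRSF1, SRSF4, SRSF5 and SRSF10, also called lower, had no TATAAA in their windows. Any relation between motif and change was not tested. CCAAT was found in SRSF3 alone, against 34.6% of all windows. GGGCGG was found in 4 members and in 15786 of the 35116 windows, and CACGTG in 0 members against 7.26%. TATAAA and CCAAT, or their reverse complements, are in capitals.
SRSF3, chr6:36594112-36594411, plus strand: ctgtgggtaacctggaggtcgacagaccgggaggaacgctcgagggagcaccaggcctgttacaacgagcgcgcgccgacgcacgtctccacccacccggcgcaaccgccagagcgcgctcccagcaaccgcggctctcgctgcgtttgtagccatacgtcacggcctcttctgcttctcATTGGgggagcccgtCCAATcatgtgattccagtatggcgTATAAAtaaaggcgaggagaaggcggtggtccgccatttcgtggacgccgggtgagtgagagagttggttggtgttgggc
SRSF7, chr2:38751312-38751611, minus strand: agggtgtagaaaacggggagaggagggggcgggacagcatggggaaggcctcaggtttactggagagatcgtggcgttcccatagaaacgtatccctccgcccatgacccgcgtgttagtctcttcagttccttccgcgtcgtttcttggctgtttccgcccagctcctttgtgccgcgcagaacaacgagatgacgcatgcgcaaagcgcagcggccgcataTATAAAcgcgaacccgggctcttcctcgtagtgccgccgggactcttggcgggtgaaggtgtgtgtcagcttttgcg

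The window of SRSF7 is that of the more downstream of its 2 listed starts. No measurement here bears on which start was used.

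SRSF4, SRSF5 and SRSF6 encode a group of SR proteins with a pair of RNA recognition motifs and long arginine-serine tails. SRSF6 (ENSG00000124193; chromosome 20, 43457928 to 43464247, plus strand) had 136, 166, 162 and 151 CPM with DMSO and 115, 98.8, 103 and 111 CPM with dTAGV1. SRSF4 (ENSG00000116350; chromosome 1, 29147743 to 29181987, minus strand) had 163, 169, 146 and 166 CPM with DMSO and 135, 129, 127 and 124 CPM with dTAGV1. Both were lower in all 4 dTAGV1 libraries than in any DMSO library. The log2 fold change was -0.52 for SRSF6 and -0.32 for SRSF4, each with an SE of 0.08 (edgeR, Benjamini-Hochberg adjusted p = 6.41e-06 and 0.000672).

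SRSF5 (ENSG00000100650; chromosome 14, 69726900 to 69772005, plus strand) was the most variable member, with 352, 293, 304 and 253 CPM with DMSO and 273, 236, 207 and 203 CPM with dTAGV1. The groups overlapped through DMSO replicate 4 and dTAGV1 replicate 1. The log2 fold change was -0.39 (SE 0.10; edgeR, Benjamini-Hochberg adjusted p = 0.00282), and it was -0.31 without DMSO replicate 1, the highest library. When a fold change above 1.2 was required (glmTreat of edgeR), 5 members were called lower against 21.4% of all tested genes. SRSF4, SRSF5 and SRSF10 then no longer passed, at adjusted p-values of 0.152, 0.0825 and 0.736 after Benjamini-Hochberg adjustment.

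Within this group no ratio passed the threshold, which does not show that the proportions were equal. There were 1.05 ± 0.127 counts of SRSF4 for each of SRSF6 with DMSO and 1.21 ± 0.0770 with dTAGV1, a log2 difference of 0.20 (SD, n = 4 each; 2-sided exact permutation test p = 0.0857, and 0.214 after adjustment over 5 ratios). The ratio of SRSF5 to SRSF6 was 1.98 ± 0.419 and 2.15 ± 0.281, a log2 difference of 0.14 (exact permutation test p = 0.429, and 0.714 after adjustment). That of SRSF4 to SRSF5 was 0.544 ± 0.0907 and 0.566 ± 0.0576, a log2 difference of 0.07 (exact permutation test p = 0.686, and 0.857 after adjustment). The last of these differences became -0.01 without DMSO replicate 1. These 3 ratios share members and are not independent. The smallest exact p that 4 libraries against 4 allow is 0.0286, and 1 ratio alone at that p could not pass after adjustment over 5.

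SRSF1 is a classic splicing activator that is amplified in some tumours, and SRSF9 is its closest relative. SRSF1 fell, whereas SRSF9 did not pass the test. SRSF1 (ENSG00000136450; chromosome 17, 58003360 to 58007346, minus strand) had 126, 137, 138 and 136 CPM with DMSO and 91.6, 114, 95.2 and 99.6 CPM with dTAGV1. Its groups did not overlap, and its log2 fold change was -0.42 with a 95% interval of -0.59 to -0.25 (edgeR, Benjamini-Hochberg adjusted p = 0.000105). SRSF1 overlaps AC015813.2 on the same strand in GENCODE 29, and reads in shared exons would have been counted to neither.

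SRSF9 (ENSG00000111786; chromosome 12, 120461668 to 120469793, minus strand) had 160.1, 181, 189 and 176 CPM with DMSO and 200.4, 191, 192 and 186 CPM with dTAGV1. Most dTAGV1 libraries were at or above the DMSO range, with 1 overlap at DMSO replicate 3. The log2 fold change was 0.12 with a 95% interval of -0.03 to 0.27 and did not pass the test (edgeR, Benjamini-Hochberg adjusted p = 0.153). There were 0.761 ± 0.0249 counts of SRSF1 for each of SRSF9 with DMSO and 0.522 ± 0.0605 with dTAGV1, without overlap between the groups (SD, n = 4 each). The difference of the log2 ratio was -0.55 (2-sided exact permutation test p = 0.0286, the smallest that 4 libraries against 4 allow). After correction over 5 ratios the value was 0.143 (exact permutation test with Benjamini-Hochberg adjustment). With 1 ratio alone at the smallest p, this correction could not give a value under 0.05, however large the difference. The corrected value therefore does not decide whether this ratio differed.

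**Figure D2:**
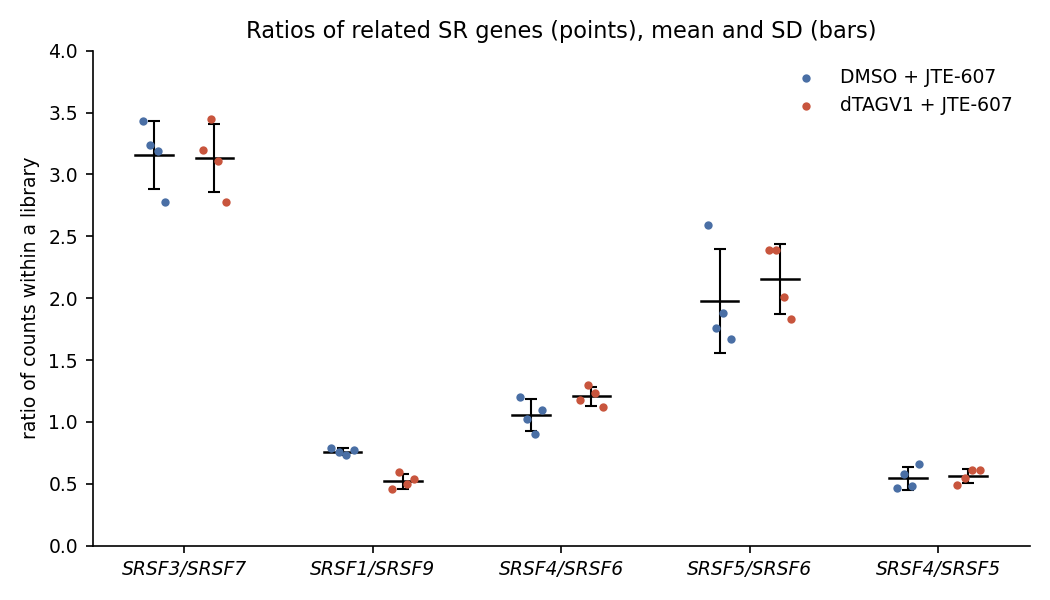
Ratios of counts within each library for 5 pairs of related SR genes, with 1 point per library, the mean as a horizontal bar and the SD as an error bar (n = 4 per group). SRSF1 to SRSF9 is the pair whose groups are separate, at 0.731 to 0.788 with DMSO and 0.457 to 0.599 with dTAGV1.

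SRSF10 and SRSF11 are atypical members. SRSF10 encodes a protein that represses splicing when its tail loses phosphate, as in heat shock and mitosis, and SRSF11 encodes a protein that can act against other SR proteins at some exons. SRSF10 (ENSG00000188529; chromosome 1, 23964804 to 23980927, minus strand) had 236, 246, 216 and 229 CPM with DMSO and 198, 178, 227 and 212 CPM with dTAGV1. The groups overlapped, and the log2 fold change was -0.19 with a 95% interval of -0.35 to -0.03 (edgeR, Benjamini-Hochberg adjusted p = 0.0426). Leaving out any 1 of DMSO replicates 1, 2 and 4 and dTAGV1 replicates 1 and 2 ended this call, at adjusted p-values of 0.0626 to 0.126, and with DESeq2, at an adjusted p of 0.0530. Unmapped reads were 30.3% and 29.9% in dTAGV1 replicates 1 and 2 and 24.9% and 20.4% in replicates 3 and 4. SRSF10 and SRSF11 were lower, and SRSF3, SRSF4 and SRSF5 higher, in the first 2 of these libraries than in the last 2. The remaining members did not split in this way. Whether these shares are related to those values was not tested.

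SRSF11 (ENSG00000116754; chromosome 1, 70205682 to 70253052, plus strand) was the most abundant member in every library. It had 661, 693, 694 and 675 CPM with DMSO and 636, 614, 700.2 and 680.4 CPM with dTAGV1, and the groups overlapped. Its log2 fold change was -0.05 with a 95% interval of -0.18 to 0.09 (edgeR, Benjamini-Hochberg adjusted p = 0.537). A fall as large as that of SRSF4, -0.32, lies outside this interval. The value of SRSF4 has its own 95% interval, -0.48 to -0.17, and the difference between the 2 genes was not tested.

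**Figure D3:**
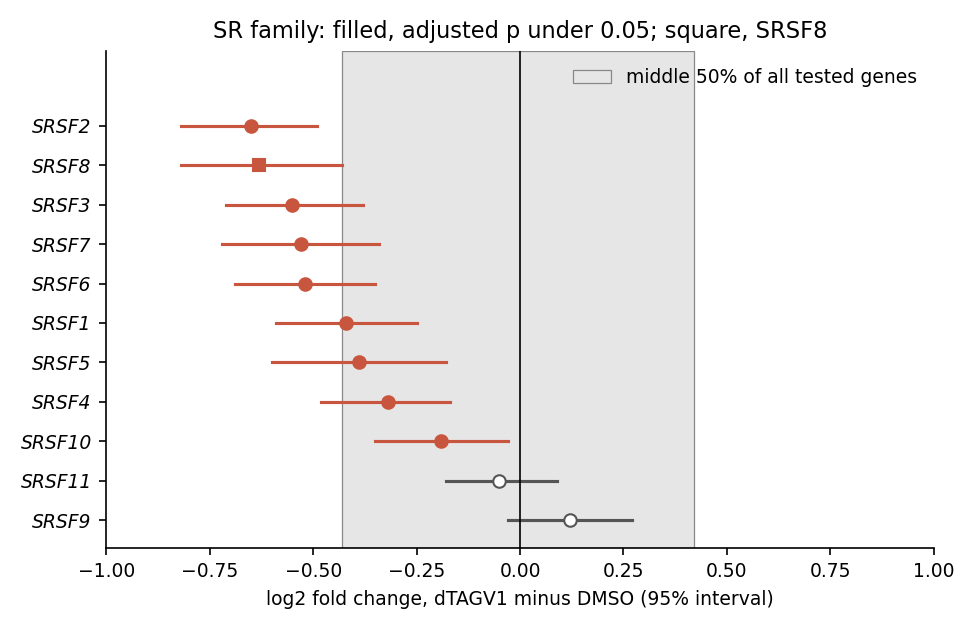
Log2 fold change, dTAGV1 minus DMSO, for the 10 SR genes (circles) and SRSF8 (square), with 95% intervals from edgeR; filled symbols passed an adjusted p of 0.05. The shaded band spans the quartiles of all tested genes, -0.43 to 0.42, and SRSF2 lies farthest below it at -0.65.

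Levels can be ordered by tags per transcript, although the yield of tags can differ between 3′ ends. With DMSO the order was SRSF11, SRSF5, SRSF3, SRSF10, SRSF2, SRSF9, SRSF4, SRSF6, SRSF1 and SRSF7, from a mean of 681 to 90.4 CPM. Neighbours overlapped between libraries for SRSF5 and SRSF3, SRSF2 and SRSF9, SRSF9 and SRSF4, SRSF4 and SRSF6, and SRSF6 and SRSF1. With dTAGV1 the order was SRSF11, SRSF5, SRSF10, SRSF3, SRSF9, SRSF4, SRSF2, SRSF6, SRSF1 and SRSF7, from 658 to 62.6 CPM. Neighbours here overlapped for SRSF5 and SRSF10, SRSF10 and SRSF3, SRSF3 and SRSF9, SRSF4 and SRSF2, and SRSF6 and SRSF1. SRSF2 had thus passed from a mean above SRSF9 to a mean below it. With dTAGV1 its highest library, at 132 CPM, was below the lowest of SRSF9, at 186 CPM.

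Genes that work with the SR family were counted by list, beside 57.9% of all tested genes called in either direction, 28.5% lower and 29.4% higher. No difference between a list and the family, or between a list and other genes, was tested. Of 11 listed kinases and other regulators of SR proteins 9 were tested, with 2 higher, 2 lower and a median log2 fold change of -0.03. These 4 calls among 9 genes are below the share over all tested genes. DYRK1A, a kinase that phosphorylates splicing factors among other targets, rose from 68.4 ± 3.63 to 122 ± 6.27 CPM, and the CDC-like kinase CLK4 rose from 15.3 ± 0.992 to 26.2 ± 2.15 CPM (SD, n = 4 each). Their log2 fold changes were 0.84 and 0.78 (edgeR, Benjamini-Hochberg adjusted p = 4.44e-09 and 3.63e-05). PRPF4B, a kinase of the spliceosome, and SRPK1, the main cytoplasmic SR kinase, fell by less, with log2 fold changes of -0.26 and -0.19 (edgeR, Benjamini-Hochberg adjusted p = 0.0199 and 0.0274). The import receptor TNPO3 had a log2 fold change of -0.03 and was not called.

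Of 36 listed companion genes, whose proteins have arginine-serine tails or a role beside SR proteins, 34 were tested. The list includes SRSF8 and SRSF12. It had 6 genes higher, 10 lower and a median of -0.02, again fewer calls than the 57.9% over all tested genes. ARGLU1, an arginine- and glutamate-rich splicing modulator, fell from 239 ± 5.60 to 119.7 ± 10.9 CPM (SD, n = 4 each; edgeR, Benjamini-Hochberg adjusted p = 5.42e-11). PNN, a protein of the exon junction complex periphery, and LUC7L, a U1 snRNP-associated factor, had log2 fold changes of -0.50 and -0.49. SREK1IP1, which binds the SR-related protein SREK1, had one of 0.45, SCAF11 one of 0.42, the SR-related regulator SFSWAP one of 0.41 and RSRC1 one of 0.29. All of these passed the test, with adjusted p-values up to 0.00222. TRA2B, an SR-like activator, had a log2 fold change of 0.05, and the speckle proteins SON and SRRM2 had 0.12 and 0.15, and none of these was called.

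Of 10 factors of nonsense-mediated decay, which removes poison-exon transcripts, 4 were higher and 2 lower, with a median of 0.05. These 6 calls among 10 genes are near the 57.9% over all tested genes. UPF2 and UPF3A rose, with log2 fold changes of 0.38 and 0.32, and SMG9 and UPF3B fell, with -0.80 and -0.52 (edgeR, Benjamini-Hochberg adjusted p up to 0.00439). SMG8, also called higher, was below 10 CPM. The helicase UPF1, the core of the pathway, had a log2 fold change of 0.01 and was not called. Of 12 export partners 10 were tested, with 2 higher and 2 lower and a median of 0.06, which is fewer calls than the 57.9% over all tested genes. CHTOP and THOC5 rose, with 0.52 and 0.47, and NXT1 and THOC2 fell, with -0.45 and -0.29 (edgeR, Benjamini-Hochberg adjusted p up to 0.00683).

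**Figure D4:**
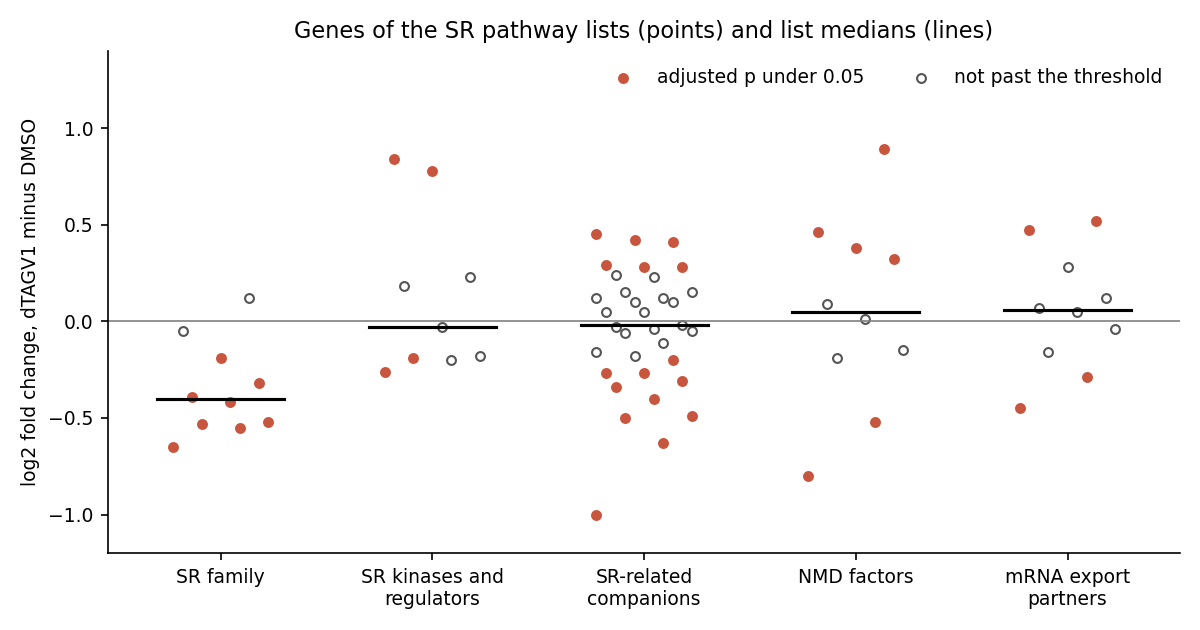
Log2 fold change, dTAGV1 minus DMSO, of each tested gene in 5 lists, with filled points past an adjusted p of 0.05 and the list median as a line. The SR family has a median of -0.40, and the medians of the 4 other lists lie between -0.03 and 0.06.

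Strand mattered for 1 member. The 3′ part of SRSF9 lies across GATC, a gene on the opposite strand (chromosome 12, 120446438 to 120463749). Summed over the 8 libraries, SRSF9 had 5535 counts on its own strand and 868 on the opposite strand, and only 111 remained when strand was ignored. Ignoring strand left SRSF9 with 9 to 21 counts per library, and its log2 fold change was then 0.06. The other 9 members had 0 to 50 opposite-strand counts in all, and the largest loss among them when strand was ignored was at SRSF6, with 3774 of 3954 counts left. The opposite-strand counts at SRSF9 were 128, 148, 121 and 164 with DMSO and 93, 61, 54 and 99 with dTAGV1, without overlap. GATC itself fell from 64.3 ± 2.59 to 44.2 ± 4.54 CPM, with a log2 fold change of -0.54 (SD, n = 4 each; edgeR, Benjamini-Hochberg adjusted p = 5.61e-05). Reads of GATC in the shared stretch are also counted as opposite-strand reads of SRSF9, so these 2 falls are not separate observations. In turn, GATC had 577 to 738 opposite-strand counts with DMSO and 625 to 781 with dTAGV1. The sense counts of SRSF9 were 586 to 752 and 633 to 787.

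Copies of the SR genes elsewhere in the genome took few reads. Of 13 SRSF pseudogenes with a symbol, 9 had no count, and no library held more than 5 counts of any. Reads that fit a member and a copy equally well were counted to neither. SRSF12, the family gene most like SRSF10, had 0 sense counts in all 8 libraries. An approximate 95% upper limit for a count of 0, from counting error alone, is 3 counts, here 0.710 to 0.906 CPM. On its opposite strand SRSF12 had 0 to 3 counts with DMSO and 29 to 42 with dTAGV1. Over 3324 genes with enough opposite-strand counts to be tested, 48.4% were called in either direction.

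**Figure D5:**
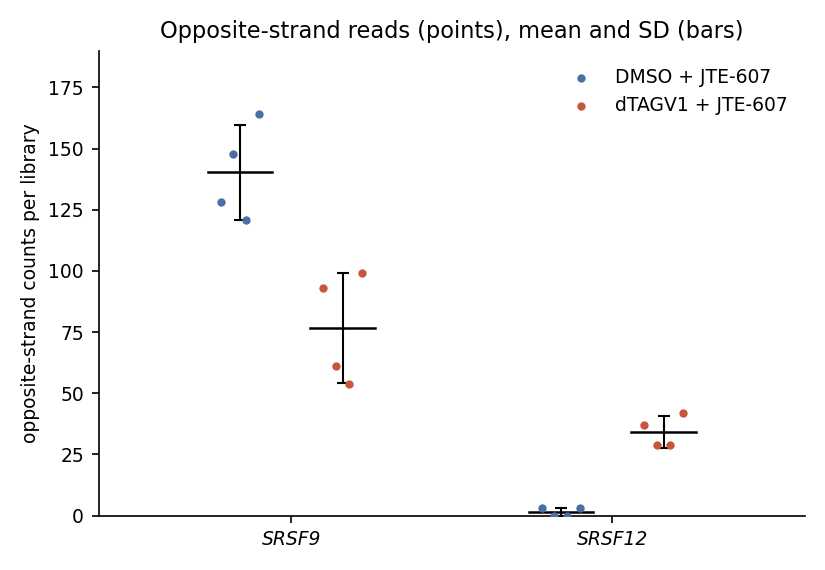
Opposite-strand counts per library at SRSF9 and SRSF12, with 1 point per library, the mean as a horizontal bar and the SD as an error bar (n = 4 per group). At SRSF9 they are 121 to 164 with DMSO and 54 to 99 with dTAGV1, and at SRSF12 they are 0 to 3 and 29 to 42.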

How the data were processed

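RNA of 8 HCT116 libraries was sequenced from 3′ ends with a forward-stranded Lexogen QuantSeq kit, per the labels' protocols. The authors deposited whole-number counts of reads per gene for each library, irrespective of strand, on the gene's strand and on the opposite strand. FastQC, fastp, STAR, HTSeq, DESeq2 and GRCh38 are named in the submitters' processing notes, without versions or roles. Neither the annotation release nor the handling of molecular identifiers is given in the sources used here. The floor for SRSF12 covers counting error only, whereas the edgeR intervals also take in the spread between libraries. Multimapping and ambiguous reads are listed apart from genes in the deposited files. The 4 totals of reads given to no gene held 56.7% to 62.8% of reads and stayed out of library sizes and tests. Sense counts were used.

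Genes were tested with edgeR 4.0.16 in R 4.3.3 (filterByExpr, TMM, robust quasi-likelihood F test) on all 12618 genes that passed the filter, which all 10 members did, with Benjamini-Hochberg adjustment at 0.05. Intervals are 95%. Ratios were tested with 2-sided exact permutation tests in SciPy 1.17.1 over 5 pairs. Alternatives were DESeq2 1.42.0, limma-voom (limma 3.58.1), other scalings, filters, strand, dispersion and fold thresholds, a replicate block and leaving out each library. On simulated counts with 200 of 12618 genes changed, edgeR recovered 55% of changes of 0.5 and 89% of changes of 1 on the log2 scale, with 8 false calls. Far fewer genes changed there than the 57.9% called in the data, so these rates do not carry over to the results above.

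The members and lists were chosen with earlier results of these data known. All 10 members are named. From each list, up to 4 called genes in each direction with a mean of at least 10 CPM are named. TNPO3, TRA2B, SON, SRRM2, UPF1 and SMG8 were added once values had been seen, and 1 gene that the rule names is not reported here. The labels do not say that replicates came from separate cultures, so p-values measure only the spread between these libraries. Coordinates and transcript classes are those of GENCODE 29 on GRCh38, which is not stated to be the authors' annotation, and promoters are from RefSeq. Figures were drawn with matplotlib 3.10.9.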

Additional observations from a re-analysis of the deposited data

Results flagged for a closer look

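A signal outside the sense counts appeared on the opposite strand of SRSF12, the family gene without sense counts (chromosome 6, 89095959 to 89118081, minus strand). With DMSO, replicates 1 to 4 had 3, 0, 0 and 3 opposite-strand counts. With dTAGV1 they had 37, 29, 29 and 42, all above the DMSO range. The log2 fold change was 4.37 (SE 0.45; edgeR on opposite-strand counts, Benjamini-Hochberg adjusted p = 1.49e-09). Of 3324 genes with enough opposite-strand counts, 48.4% were called in either direction. With 0 to 3 DMSO counts this size depends on the prior count of the fit. PNRC1, on the plus strand 10798 bases before this interval (89080751 to 89085160), had 69.2 ± 6.90 CPM with DMSO and 97.7 ± 2.63 CPM with dTAGV1 (SD, n = 4 each), and the log2 fold change of PNRC1 was 0.50. Any relation between the 2 signals was not tested. At SRSF9 the opposite-strand counts had a log2 fold change of -0.90 (edgeR, Benjamini-Hochberg adjusted p = 5.32e-06). Those counts include reads of GATC, described above, so this change is not separate from the fall of GATC. Among 30 groups of 4 values tested for a library far from the others, 0 were found.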

How the results depend on the processing

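All 10 members kept their direction in their 18 alternatives each, and 171 of the 180 values kept their side of the threshold. The other 9 were SRSF10 in 7, and SRSF4 and SRSF5 in 1 each. A required fold change above 1.2 left 5 members called lower, SRSF1, SRSF2, SRSF3, SRSF6 and SRSF7, against 21.4% of all tested genes called lower in that test. It left 2 SR kinases and regulators, 8 companions, 3 decay factors and 2 export partners called in either direction, against 42.1% of all tested genes. A minimum mean of 100 counts gave 4120 called genes, since fewer were tested. Scaling by library size lowered all log2 fold changes by a median of 0.07 (shift -0.07) and called 8 members lower. Leaving out each library called 7 to 8 members lower. Without single libraries the log2 ratio of SRSF3 to SRSF7 ran from -0.07 to 0.05 and that of SRSF4 to SRSF5 from -0.01 to 0.16, so no direction is given. The 3 against 4 design allows no exact p below 0.0571. Numbers shared by replicates were not taken as pairs: deviations correlated at 0.135, -0.0221, 0.0253 and 0.0362, and 3 of 8 libraries correlated best with their own number. With the replicate block, 7434 genes and 8 members were called, against 7302 and 8, and 4 pairs allow no exact p below 0.125 for ratios.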

Other observations

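The genes next to the SR genes were listed after the values above were seen. In GENCODE 29, 17 genes overlapped a member or lay within 5 kb of it, and 8 of them were tested, all on the opposite strand. Of these, 6 were lower and 0 higher with dTAGV1, against 28.5% of all tested genes called lower (edgeR, Benjamini-Hochberg adjusted p under 0.05). Beside SRSF2, MFSD11 and METTL23 had log2 fold changes of -0.55 and -0.58. Beside SRSF10, PNRC2 had one of -0.54, where SRSF10 itself had -0.19. Beside SRSF11, LRRC40 had one of -0.49, where SRSF11 had -0.05, and beside SRSF7, GALM had one of -0.32. GATC, described above, was the sixth. GEMIN6 beside SRSF7 and DYNLL1 beside SRSF9 had -0.20 and -0.04 and were not called.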
